A study of Mus musculus with 6 samples.

Results

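The Hox genes of the 4 mammalian clusters were measured in immortalized mouse podocytes. The members are the protein-coding genes whose symbol is Hoxa, Hoxb, Hoxc or Hoxd followed by a number, which gave 39 of the 57132 genes in the table, 11 in HoxA on chromosome 6, 10 in HoxB on chromosome 11, 9 in HoxC on chromosome 15 and 9 in HoxD on chromosome 2. RNA-seq was performed on 3 samples of immortalized wildtype podocytes (WT, Col4a3+/+) and 3 samples of immortalized Alport syndrome podocytes (AS, Col4a3-/-). Alport syndrome is an inherited kidney disease in which the basement membrane of the glomerulus lacks type IV collagen chains. The labels give kidney of 8-week-old male mice and no treatment for both groups. Both lines come from Col4a3KO mice bred with H-2Kb-tsA58 mice, in which the interferon-inducible H-2Kb promoter drives a temperature-sensitive SV40 large T antigen, so that the WT line carries the transgene too. Per the labels, cells of both lines were kept at 33 °C in 20 U/mL interferon gamma and differentiated for 14 days at 37 °C. The study's methods give another medium, another dose of interferon gamma and another number of days. Since 1 line stands for each genotype, effects of the allele and of the line cannot be told apart. The labels number the samples as sets without saying what a set is, and the p-values therefore measure the spread between these samples, which may be technical.

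Hox genes encode homeodomain transcription factors that give cells their position along the body and limb axes, and adult mesenchyme and kidney cells keep much of the pattern laid down in the embryo. Genes lie in each cluster in the order in which they are switched on, from the 3' (anterior) genes of paralogue group 1 to the 5' (posterior) genes of group 13, and a paralogue group holds the genes that descend from a common ancestor and share much of their function. The kidney forms at the level of the posterior genes, where Hoxa11, Hoxc11 and Hoxd11 act redundantly in the metanephric mesenchyme that gives rise to the nephron and its podocytes, and group 10 genes act in the kidney stroma. Hox proteins bind DNA together with TALE homeodomain cofactors, and Polycomb and Trithorax complexes keep the clusters silent or active.

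The samples had total counts of 45417221 to 54290968. Expression is given as CPM, counts relative to the library size scaled by TMM, and differences as log2 fold changes, AS over WT, from edgeR's quasi-likelihood test (two-sided) over the 16263 genes that passed the filter on low counts, with Benjamini-Hochberg adjustment over all of them and a threshold of 0.05. Between genes, levels are compared only as CPM per kilobase of annotated exon. Col4a3 had 938, 1052 and 1272 CPM in WT and 62.4, 61.2 and 82.9 CPM in AS (log2 fold change -3.98 ± 0.15 SE, adjusted p = 1.31e-07), so that the counts follow the labels. The counts are per gene and do not show where in it the reads of AS lie. Among podocyte markers, several defining ones were absent or low and others were abundant. Tcf21, a podocyte transcription factor, had 0 counts in all 6 samples, Nphs1 (nephrin) had 0.466 ± 0.00969 CPM in WT and 0.0407 ± 0.0390 CPM in AS, and Wt1, another such factor, had 20.6 ± 5.28 CPM in WT and 2.50 ± 0.928 CPM in AS. Synpo, which acts on the actin cytoskeleton, had 803 ± 44.2 CPM in WT and 526 ± 30.8 CPM in AS, Actn4, another such gene, had 810.1 ± 45.7 CPM in WT and 677 ± 16.7 CPM in AS, and Cd2ap, a partner of nephrin, had 131 ± 6.31 CPM in WT and 107 ± 1.85 CPM in AS. Of 9 tested podocyte markers, 7 were lower and 2, Lmx1b among them, higher in AS, beside 19.6% lower and 20.4% higher over all genes tested. The summed level of the podocyte markers was 1729.7 to 1905 CPM in the WT libraries and 1300.3 to 1387 CPM in the AS libraries.

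The Hox genes did not move together. Of the 39 genes, 34 could be tested, and 15 were higher and 5 lower in AS, while 14 were not called. That is 44.1% higher and 14.7% lower, beside 20.4% and 19.6% of all genes tested. The median log2 fold change of the tested Hox genes was 0.29, beside 0.0061 over all genes. Past a fold change of 2 there were 6 higher genes, Hoxa11, Hoxc6, Hoxc8, Hoxd10, Hoxd11 and Hoxd13, and 1 lower gene, Hoxa7, and the same limit held 4.59% of all genes tested as higher and 6.59% as lower. In 17 of the tested Hox genes every AS sample lay above every WT sample and in 8 every AS sample lay below, beside 26.4% and 26.0% of all genes tested. Hoxa11, Hoxd11 and Hoxd13 passed the filter through the AS samples, where they are high, and so had to differ. Without them, 12 of 31 tested genes were higher and 5 lower, 3 were higher by more than 2-fold, and the median was 0.23. In these bulk libraries, fewer cells that express a gene and less of its RNA per cell cannot be told apart.

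**Figure D1:**
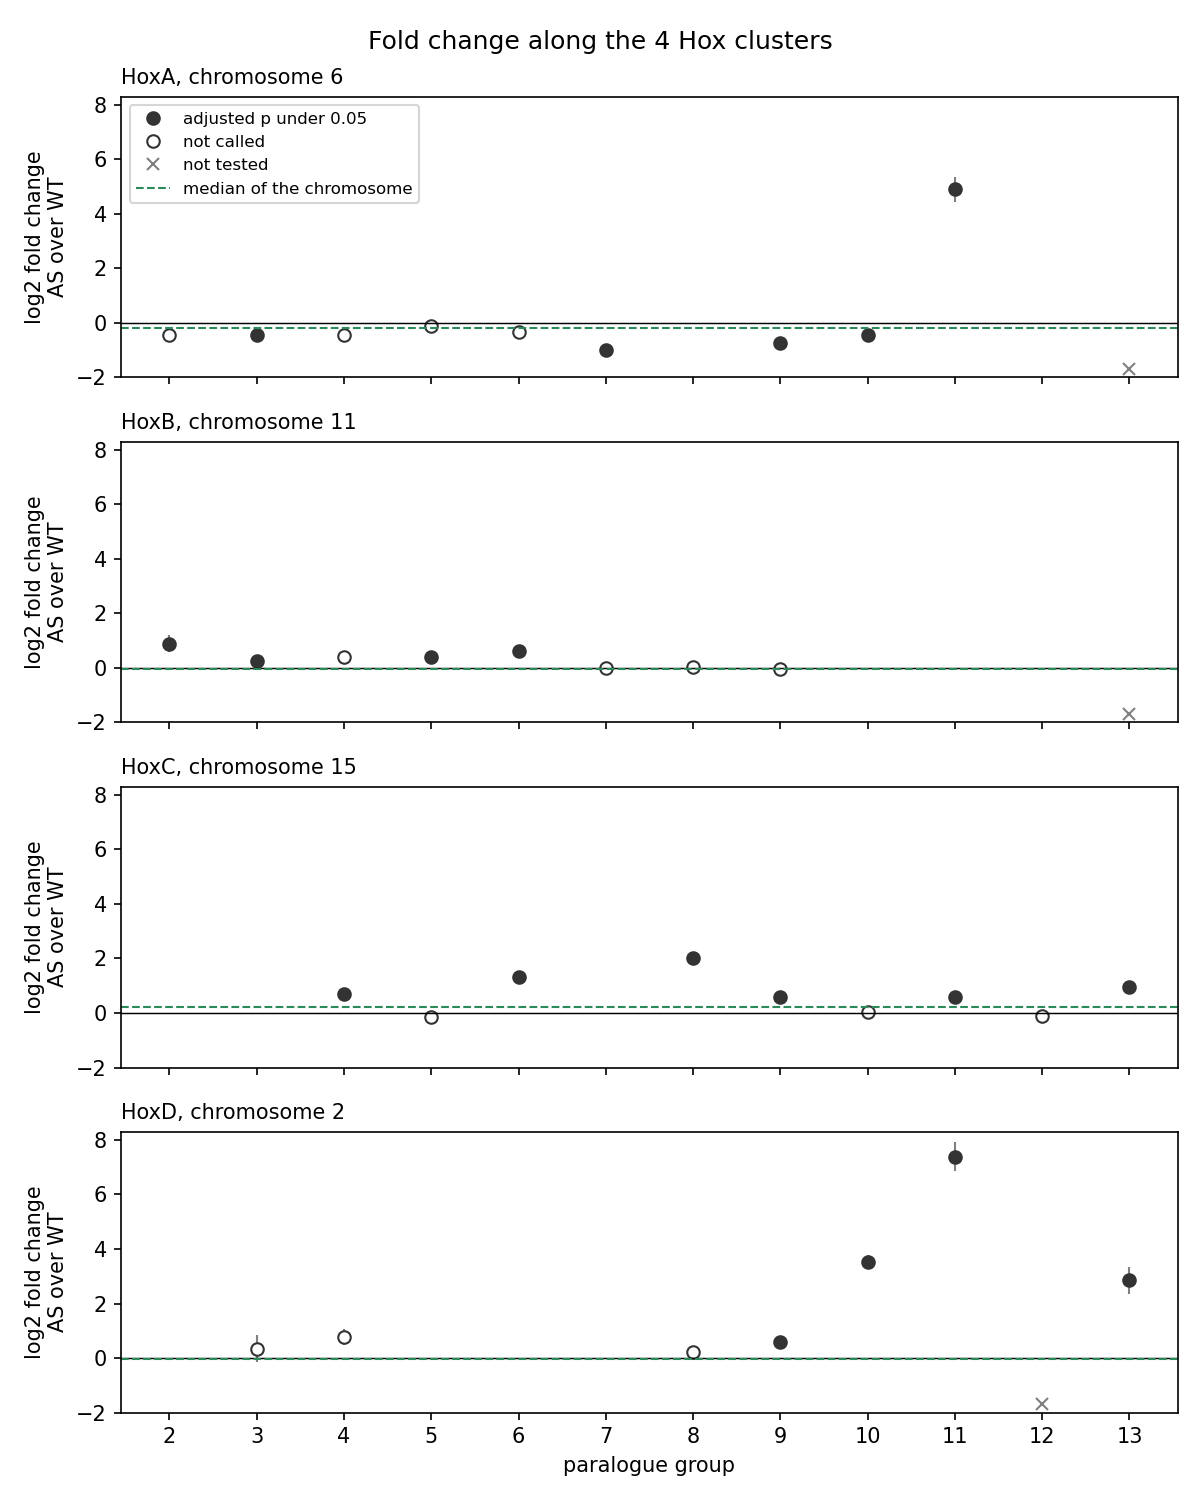
Log2 fold change (AS over WT, y axis) of the tested Hox genes of groups 2 to 13 by paralogue group (x axis), one panel per cluster. Bars are SE, filled points have an adjusted p under 0.05, crosses mark genes that were not tested and the dashed line is the median of that chromosome's tested genes with a mean log2 CPM over 2. HoxA lies below 0 apart from Hoxa11, HoxC has 6 filled points above 0, and within HoxD the points of groups 10, 11 and 13 stand highest. The point of Hoxd11 is a fitted value that rests on 3 WT counts.

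The 5 genes without a test sit at or near the ends of their clusters. Hoxd1 and Hoxd12 had 0 counts in all 6 samples, which allows up to 0.0209 CPM over all WT libraries and 0.0198 CPM over all AS libraries, counting error only. Hoxb1 had 0 counts in WT and a level of 0.0444 CPM in AS replicate 1 alone. Hoxa13 had 0.0144 ± 0.0250 CPM in WT and 0.0509 ± 0.0720 CPM in AS, and Hoxb13 had 0.0407 ± 0.0395 CPM in WT and 0.175 ± 0.0745 CPM in AS (SD, n = 3). At a mean of at least 1 CPM, 27 Hox genes were present in WT and 32 in AS. Hoxb2, Hoxd4, Hoxa11, Hoxd10, Hoxd11 and Hoxd13 reached that level in AS alone, and Hoxa4 in WT alone.

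**Figure D2:**
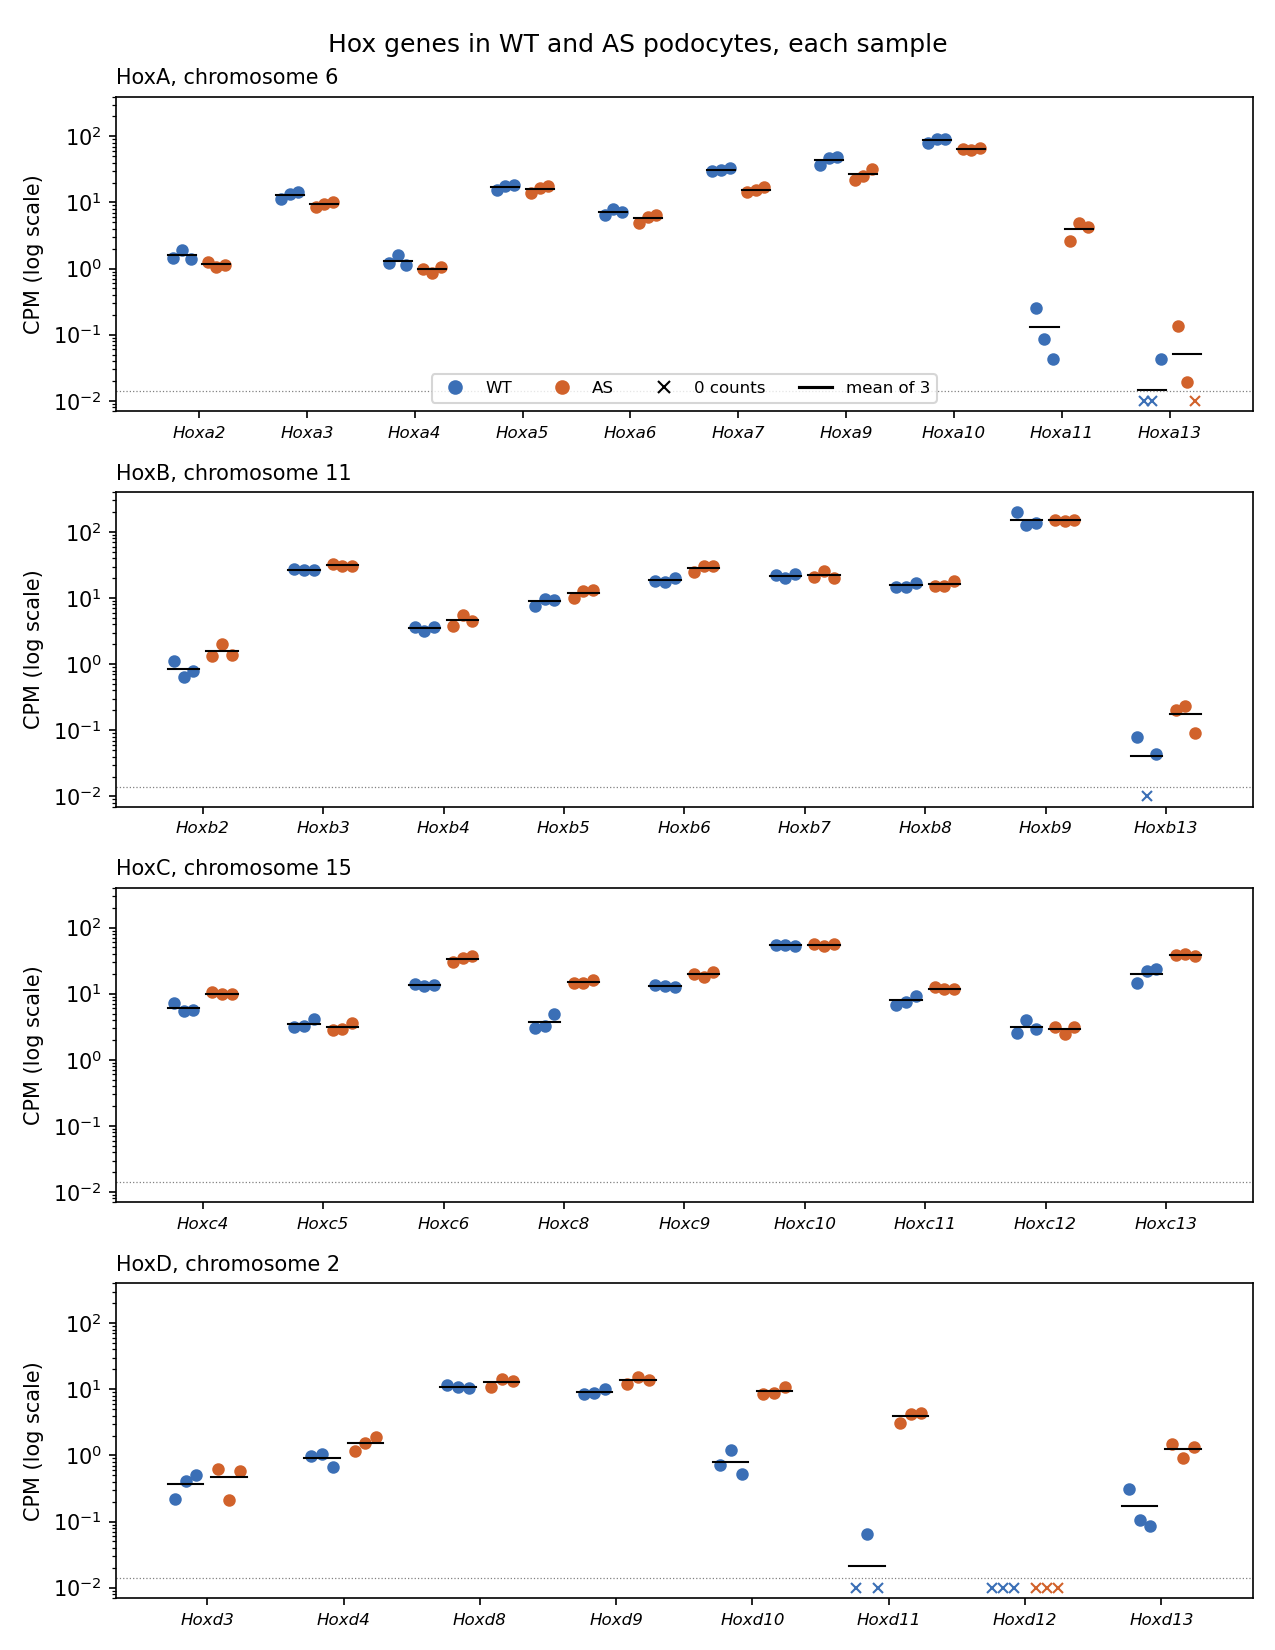
CPM (log axis) of the Hox genes of groups 2 to 13 in each sample, in cluster order, with WT in blue, AS in orange, a black line at the mean of 3 samples and crosses below the dotted line for samples with 0 counts. The WT and AS samples of Hoxa11, Hoxd10, Hoxd11 and Hoxd13 stand furthest apart. The genes of groups 2 to 9 differ less, though many of them also have separate WT and AS samples, Hoxc8, Hoxc6 and Hoxa7 among them.

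In HoxD, the posterior genes were higher in AS. Hoxd10 (ENSMUSG00000050368), which acts with its paralogues in limb and kidney patterning, had 0.710, 1.20 and 0.520 CPM in WT and 8.48, 8.66 and 10.8 CPM in AS (log2 fold change 3.52 ± 0.26 SE, adjusted p = 8.98e-06). Hoxd11 (ENSMUSG00000042499), one of the kidney genes of group 11, had 0, 0.0641 and 0 CPM in WT and 3.11, 4.24 and 4.34 CPM in AS. All WT libraries held 3 of its reads and all AS libraries 597. The counts give a ratio of 189 with a 95% counting interval of 64.3 to 918, and the adjusted p was 7.54e-06. Hoxd13, the most posterior gene of the cluster and known for its part in digits and the urogenital tract, had 0.316, 0.107 and 0.0867 CPM in WT and 1.49, 0.914 and 1.36 CPM in AS (log2 fold change 2.84 ± 0.48 SE, adjusted p = 0.00133). For these 3 genes each AS sample was above each WT sample, and the AS levels of Hoxd13 stayed near 1 CPM.

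Nearer the middle of HoxD the differences were small. Hoxd9 had 8.40, 8.82 and 10.2 CPM in WT and 12.0, 15.1 and 14.0 CPM in AS (log2 fold change 0.59 ± 0.12 SE, adjusted p = 0.0041), also without overlap. Hoxd8 had 10.9 ± 0.715 CPM in WT and 12.8 ± 1.76 CPM in AS and was not called (adjusted p = 0.163). Hoxd4 had 0.966, 1.07 and 0.672 CPM in WT and 1.15, 1.56 and 1.91 CPM in AS and just missed the threshold, with a log2 fold change of 0.77 (adjusted p = 0.0573). The adjusted p of Hoxd4 was 0.0398 without AS replicate 1. Hoxd3 had 0.374 ± 0.143 CPM in WT and 0.472 ± 0.225 CPM in AS (adjusted p = 0.629). Hoxd3 and Hoxd4 share 62.8% and 52.3% of their exon bases with other genes, among them each other and Gm28230, so that their reads cannot be assigned with certainty. All 4 tested genes of HoxD groups 9 to 13 were higher in AS, of which Hoxd11 and Hoxd13 were tested only because of their AS levels, and none of 3 tested genes of groups 1 to 8 was called. The summed level of HoxD was 22.3 ± 0.0871 CPM in WT and 42.95 ± 4.69 CPM in AS (SD, n = 3), a ratio of 1.92, without overlap.

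In HoxC, 6 of 9 genes were higher in AS and none was lower. Hoxc8, a thoracic gene of the middle of the cluster, had 3.04, 3.23 and 4.90 CPM in WT and 14.5, 14.7 and 15.9 CPM in AS (log2 fold change 2.02 ± 0.17 SE, adjusted p = 2.39e-05). Hoxc6 had 14.0, 13.1 and 13.4 CPM in WT and 30.3, 34.2 and 37.3 CPM in AS (log2 fold change 1.33 ± 0.087 SE, adjusted p = 4.23e-06). Both were more than 2-fold higher, and all AS samples exceeded all WT samples. Hoxc13, known for its part in hair and nail formation, had 14.4, 22.1 and 23.4 CPM in WT and 39.0, 39.6 and 37.1 CPM in AS (log2 fold change 0.95 ± 0.15 SE, adjusted p = 0.001). Hoxc4 had 7.30, 5.47 and 5.66 CPM in WT and 10.6, 9.75 and 9.83 CPM in AS (log2 fold change 0.71 ± 0.14 SE, adjusted p = 0.00264). The remaining called genes, Hoxc9 and Hoxc11, differed by 0.59 (adjusted p = 0.000575) and 0.60 (adjusted p = 0.00518) on the log2 scale. Hoxc11, the group 11 gene with the highest level in WT, had 6.82, 7.54 and 9.36 CPM in WT and 12.5, 11.6 and 11.8 CPM in AS, without overlap.

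The genes of HoxC that were not called lay between those that were. Hoxc10 had 54.3, 54.5 and 52.7 CPM in WT and 55.8, 52.7 and 56.8 CPM in AS, and its log2 fold change of 0.034 was within the spread between samples (adjusted p = 0.674). Hoxc5 and Hoxc12 had log2 fold changes of -0.15 (adjusted p = 0.559) and -0.11 (adjusted p = 0.712). The summed level of HoxC was 124.7 ± 5.24 CPM in WT and 190.4 ± 5.47 CPM in AS, a ratio of 1.53, and the 2 groups did not overlap. Hoxc10 made up 43.1% of the summed CPM of the cluster in WT and 28.9% in AS. The tested genes of chromosome 15 with a mean log2 CPM over 2 had a median log2 fold change of 0.20, and with this median subtracted the values of the 6 called HoxC genes lay between 0.39 for Hoxc9 and 1.81 for Hoxc8, while Hoxc10 turned to -0.17.

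HoxA differed in the other direction. Of 10 tested genes, 5 were lower, 8 had every AS sample below every WT sample and 1, Hoxa11, was higher. Hoxa7 had 30.2, 31.2 and 32.9 CPM in WT and 14.2, 15.5 and 17.2 CPM in AS (log2 fold change -1.01 ± 0.084 SE, adjusted p = 1.87e-05), the largest decrease among the Hox genes tested. Hoxa9, widely studied as a regulator of blood stem cells, had 37.4, 46.8 and 48.3 CPM in WT and 21.9, 25.2 and 32.3 CPM in AS (log2 fold change -0.74 ± 0.14 SE, adjusted p = 0.00292). Hoxa10 had 80.4, 91.3 and 89.7 CPM in WT and 64.5, 62.0 and 65.7 CPM in AS (log2 fold change -0.44 ± 0.063 SE, adjusted p = 0.000522). In these 3 genes the groups were separate, and each call held under every alternative in which the genes were tested again. Of the 3, Hoxa7 alone passed the limit of a 2-fold change. Hoxa7 shares 20.4% of its exon bases with the antisense gene Hoxaas3, which had 0.485 ± 0.131 CPM in WT and 0.420 ± 0.0391 CPM in AS.

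Hoxa2, Hoxa3, Hoxa4, Hoxa5 and Hoxa6 were lower by less than Hoxa7 and Hoxa9, but Hoxa2, Hoxa3 and Hoxa4 by about as much as Hoxa10. Hoxa3 had 11.1, 13.2 and 14.6 CPM in WT and 8.53, 9.46 and 10.3 CPM in AS (log2 fold change -0.46 ± 0.13 SE, adjusted p = 0.0174). Hoxa3 shares 25.4% of its exon bases with genes on the opposite strand, among them Hoxaas2, which was also lower in AS. The WT and AS samples of Hoxa3 did not overlap. Its call rests on single libraries, with an adjusted p of 0.0658 without WT replicate 3 and 0.0583 without AS replicate 1. HoxA and the whole set held 3 lower genes in place of 5 when either one of these samples was left out, and 4 without WT replicate 2 or AS replicate 3. Hoxa2, Hoxa4, Hoxa5 and Hoxa6 had log2 fold changes between -0.46 and -0.11 and were not called. The median of chromosome 6, taken in the same way, was -0.19, and with it subtracted the 5 called decreases lay between -0.82 and -0.25.

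Hoxa11 (ENSMUSG00000038210) stood against the rest of its cluster. It had 0.256, 0.0855 and 0.0433 CPM in WT and 2.64, 4.92 and 4.32 CPM in AS (log2 fold change 4.89 ± 0.46 SE, adjusted p = 4.11e-05), with 19 counts in all WT samples. Its exons overlap those of the antisense transcript Hoxa11os over 35.0% of their length, and Hoxa11os had 0, 0 and 0 CPM in WT and 0.400, 0.233 and 0.563 CPM in AS. With 0 WT counts, Hoxa11os was at least 19.1-fold higher in AS, against a floor of 3 counts over the WT samples (adjusted p = 0.00155). Like Hoxa11, Hoxa11os passed the filter through the AS samples and so had to differ. The strand setting of the counting is not given in the sources used here, so that reads of Hoxa11 and Hoxa11os cannot be told apart in the shared part. The neighbour on the anterior side, Hoxa10, was lower in AS, and the neighbour on the posterior side, Hoxa13, was near 0 in both lines. The summed level of HoxA was 208.6 ± 17.3 CPM in WT and 147.2 ± 11.2 CPM in AS, a ratio of 0.706, without overlap.

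In HoxB, 4 of 8 tested genes were higher and none was lower, and no fold change exceeded 2. Hoxb6 had 18.2, 17.3 and 20.4 CPM in WT and 25.0, 30.5 and 30.1 CPM in AS (log2 fold change 0.61 ± 0.097 SE, adjusted p = 0.00095). Its call held under every alternative in which it was tested again, but not at the limit of a 2-fold change. Hoxb2 had 1.12, 0.641 and 0.780 CPM in WT and 1.31, 2.02 and 1.40 CPM in AS (log2 fold change 0.89 ± 0.30 SE, adjusted p = 0.0392), Hoxb3 had 27.2, 26.3 and 26.2 CPM in WT and 33.1, 30.4 and 30.2 CPM in AS (log2 fold change 0.23 ± 0.066 SE, adjusted p = 0.0189) and Hoxb5 had 7.69, 9.78 and 9.43 CPM in WT and 9.86, 12.9 and 13.1 CPM in AS (log2 fold change 0.42 ± 0.14 SE, adjusted p = 0.0425). In these genes the groups did not overlap, but the calls depend on single libraries. Hoxb2, Hoxb3 and Hoxb5 all lost their calls without WT replicate 2 (adjusted p = 0.126, 0.0594 and 0.0503) and without WT replicate 3 (0.106, 0.0597 and 0.068). Hoxb2 and Hoxb5 also lost them without AS replicate 2 (0.153 and 0.136) and without AS replicate 3 (0.0644 and 0.15), Hoxb3 without AS replicate 1 (0.0844) and Hoxb5 without WT replicate 1 (0.0886). Hoxb3 and Hoxb2 share 52.9% and 27.3% of their exon bases with the antisense gene Hoxb3os, which had 0.672 ± 0.188 CPM in WT and 0.618 ± 0.238 CPM in AS.

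Hoxb9 was the most abundant Hox gene per kilobase in both lines and was not called, with 197, 127 and 136 CPM in WT and 149.6, 149 and 151 CPM in AS (log2 fold change -0.033 ± 0.14 SE, adjusted p = 0.877). The value of WT replicate 1 stood above those of the other 2 WT samples, while the AS samples lay close together. Without WT replicate 1 the log2 fold change of Hoxb9 turned to 0.19 with an adjusted p of 0.0182, which passed the threshold. Hoxb7, Hoxb8 and Hoxb4 had log2 fold changes of 0.0046, 0.038 and 0.38 and were not called. Hoxb7 had 21.9 ± 1.60 CPM in WT and 21.9 ± 2.94 CPM in AS. The sum of HoxB was 249.3 ± 38.2 CPM in WT and 265.8 ± 6.24 CPM in AS, with overlapping samples and a ratio of 1.07, and the ratio was 1.17 without WT replicate 1.

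**Figure D3:**
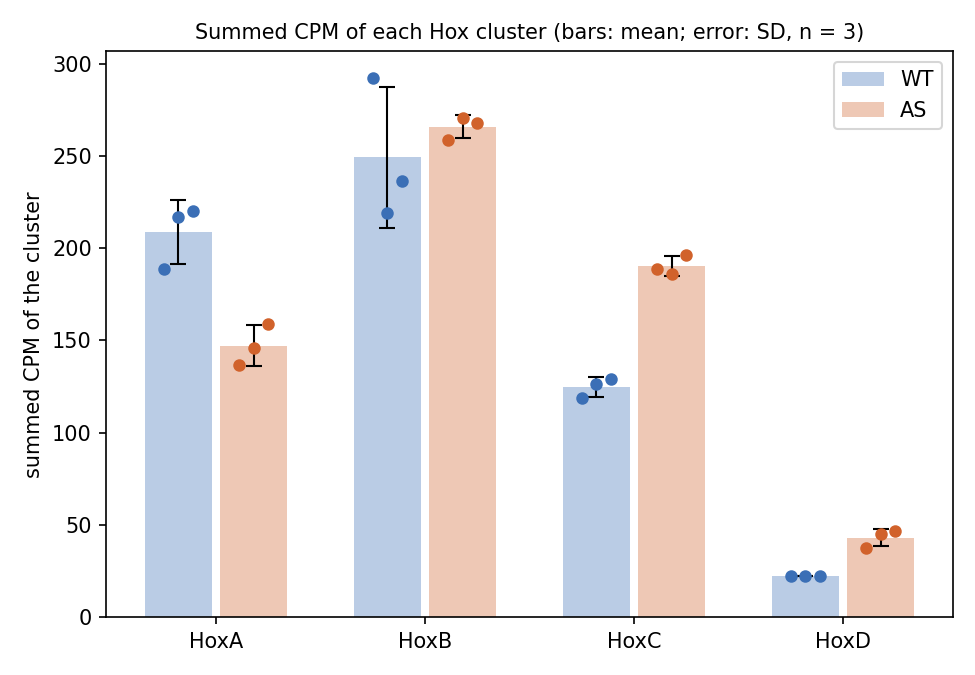
Summed CPM of each Hox cluster (y axis) in WT (blue) and AS (orange). Bars are means, error bars SD (n = 3) and points single samples. The AS samples lie below the WT samples in HoxA, among them in HoxB, and above them in HoxC and HoxD.

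The 4 clusters together held 604.9 ± 18.9 CPM in WT and 646.3 ± 24.1 CPM in AS. The sums do not enter the fit across genes, and the exact permutation test of 3 against 3 samples cannot go below p = 0.1. Per kilobase of exon, HoxA made up 25.7%, 31.5% and 30.4% of the summed Hox level in WT and 18.7%, 19.5% and 20.2% in AS. HoxC made up 23.0%, 26.2% and 25.4% in WT and 33.8%, 31.6% and 32.7% in AS. HoxD made up between 3.71% and 4.01% in WT and between 6.39% and 7.30% in AS. HoxB kept the largest share in both lines, from 38.2% to 47.6% in WT and from 39.8% to 41.7% in AS.

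By paralogue group, groups 9 and 10 held the highest summed levels per kilobase, and their samples overlapped between the lines. Group 9 summed to 77.1 ± 13.8 CPM per kilobase in WT and 77.4 ± 1.95 in AS, and group 10 to 55.3 ± 1.86 and 53.6 ± 2.22. Hoxb9 had 59.5 ± 14.9 CPM per kilobase in WT and 58.2 ± 0.418 in AS, Hoxc10 had 28.2 ± 0.518 CPM per kilobase in WT and 28.9 ± 1.12 in AS, and Hoxa10 had 26.6 ± 1.80 CPM per kilobase in WT and 19.6 ± 0.581 in AS. In WT the levels of Hoxc10 and Hoxa10 differed by less than the SD of Hoxa10, and Hoxa10 stood above Hoxc10 when the longest transcript was used as the length (34.0 and 28.2 CPM per kilobase). In AS, Hoxc13 came next per kilobase of all exons, with 8.11 ± 1.98 CPM per kilobase in WT and 15.7 ± 0.512 in AS. Hoxb6 and Hoxb7 lay below it by less than their SD, and with the longest transcript as the length Hoxc6 (21.5 CPM per kilobase) and Hoxb7 (17.0) stood above it.

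The sum of group 10 overlapped per kilobase but not in CPM, with 142 ± 5.89 CPM in WT and 128 ± 4.97 CPM in AS and a ratio of 0.906. Its members went different ways, since Hoxa10 was lower, Hoxd10 was higher and Hoxc10 was not called. Group 9 had Hoxc9 and Hoxd9 higher, Hoxa9 lower and Hoxb9 not called. In group 11 all 3 members, Hoxa11, Hoxc11 and Hoxd11, were higher in AS, Hoxa11 and Hoxd11 having passed the filter through AS. The sum of group 11 was 3.98 ± 0.605 CPM per kilobase in WT and 8.58 ± 0.44 in AS, a ratio of 2.16. Hoxc11 accounted for nearly all of that sum in WT, with 3.91 ± 0.648 CPM per kilobase in WT and 5.92 ± 0.234 in AS, while Hoxa11 had 0.0561 ± 0.0493 CPM per kilobase in WT and 1.73 ± 0.517 in AS and Hoxd11 had 0.00507 ± 0.00879 CPM per kilobase in WT and 0.925 ± 0.163 in AS. Group 13 had a ratio of 1.98, with both tested members, Hoxc13 and Hoxd13, higher.

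Of groups 2 to 8, the sums of groups 6, 8 and 4 had ratios of 1.51, 1.43 and 1.40 per kilobase, with every AS sample above every WT sample. The sum of group 7 had a ratio of 0.783, with every AS sample below. These sums were not tested. The sums of groups 2, 3, 5 and 12 had ratios between 0.926 and 1.06 per kilobase, and of these group 3 also had every AS sample above every WT sample. Over all clusters, 7 of 21 tested genes of groups 1 to 8 were higher and 3 lower, with a median log2 fold change of 0.23, and 8 of 13 tested genes of groups 9 to 13 were higher and 2 lower, with a median of 0.59. The latter include Hoxa11, Hoxd11 and Hoxd13, and without these 5 of 10 were higher and 2 lower, with a median of 0.31.

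**Figure D4:**
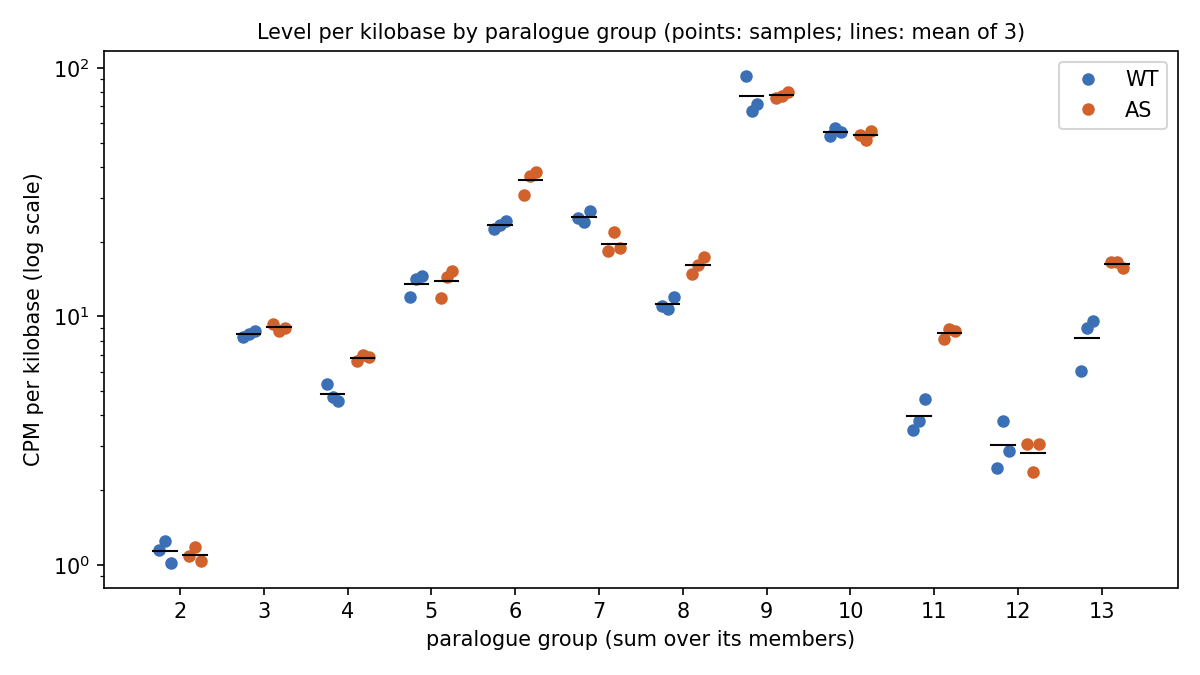
Summed level per kilobase (log axis) of the members of paralogue groups 2 to 13, with points for samples and lines for the mean of 3. Groups 9 and 10 are highest and overlap between WT (blue) and AS (orange). Groups 11 and 13, and also groups 3, 4, 6 and 8, are higher in all AS samples, and group 7 is lower in all of them.

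The start regions of Hoxa11 and Hoxd11, which were near 0 in WT and both higher in AS, are shown with that of Hoxa10, which was abundant and lower in AS. Each sequence is the 250 bases before the start of the gene on its own strand, from RefSeq on GRCm38.p6, and capitals mark CG dinucleotides, the sites of DNA methylation in mammals. They are chr6:52245811-52246060 (minus strand) for Hoxa11, chr2:74682073-74682322 (plus strand) for Hoxd11 and chr6:52234940-52235189 (minus strand) for Hoxa10.
Hoxa11: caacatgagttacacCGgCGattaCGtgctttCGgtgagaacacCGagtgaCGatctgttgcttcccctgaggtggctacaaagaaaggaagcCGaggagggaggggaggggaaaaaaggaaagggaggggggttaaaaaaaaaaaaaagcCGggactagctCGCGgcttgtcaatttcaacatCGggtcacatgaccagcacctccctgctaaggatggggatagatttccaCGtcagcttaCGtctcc
Hoxd11: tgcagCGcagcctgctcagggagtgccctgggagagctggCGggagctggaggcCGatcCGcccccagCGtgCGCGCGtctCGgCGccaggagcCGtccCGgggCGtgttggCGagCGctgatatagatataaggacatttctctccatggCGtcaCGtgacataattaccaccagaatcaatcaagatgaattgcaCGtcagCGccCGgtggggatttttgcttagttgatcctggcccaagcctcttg
Hoxa10: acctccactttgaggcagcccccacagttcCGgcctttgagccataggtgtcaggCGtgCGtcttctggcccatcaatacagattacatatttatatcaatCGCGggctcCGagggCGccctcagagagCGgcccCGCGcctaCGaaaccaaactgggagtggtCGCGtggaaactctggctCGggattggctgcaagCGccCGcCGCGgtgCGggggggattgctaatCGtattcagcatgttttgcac
They hold 13, 20 and 20 CG dinucleotides. Promoters were matched for 22 of the 39 Hox genes, with a median of 13 CG dinucleotides in 250 bases, beside 6 over 32851 promoters, and a median ratio of observed to expected CG of 0.757 beside 0.373. Searched on both strands, CCAAT was found in 14 of the 22 Hox promoters and 33.8% of all promoters, TATAAA in 4 of 22 and 12.4%, and TGATNNAT, the core of a joint site of Hox and TALE proteins, in 4 of 22 and 7.68%. None of the 3 motifs contains another, although matches may share bases. Of the 3 sequences shown, Hoxd11 holds 1 match of TGATNNAT and Hoxa10 holds 1 of TATAAA and 1 of CCAAT. DNA methylation and protein binding were not measured in these libraries.

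The clusters also hold non-coding genes. Between the outermost Hox genes, 46 other genes are annotated, 29 are in the table and 14 could be tested. Of these, 1 was higher and 1 lower, beside 20.4% and 19.6% of all genes tested. The higher gene, Hoxa11os, was tested only because of its AS levels. The lower gene, Hoxaas2 of the anterior HoxA cluster, had 1.07, 1.05 and 1.19 CPM in WT and 0.377, 0.739 and 0.382 CPM in AS (log2 fold change -1.13 ± 0.34 SE, adjusted p = 0.0247). In HoxD, the long non-coding RNA gene Gm14396 had 0, 0 and 0 CPM in WT and 0.155, 0.136 and 0.618 CPM in AS. That is at least 14.5-fold higher in AS against the same floor, but it did not pass the filter and was not tested. Hotair, a long non-coding RNA of HoxC known for its link to Polycomb, had 0.335, 0.363 and 0.347 CPM in WT and 0.377, 0.564 and 1.16 CPM in AS (log2 fold change 1.02 ± 0.45 SE, adjusted p = 0.105), and its AS samples were above its WT samples. Gm53 of HoxB had 70.9 ± 6.92 CPM in WT and 69.8 ± 5.98 CPM in AS and was not called.

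Micro-RNA genes of the miR-10 and miR-196 families lie in the clusters and are known to repress Hox mRNAs. Their mature sequences (RefSeq, GRCm38.p6) show the seed, bases 2 to 8, in capitals, which is shared within each family.
miR-10a-5p: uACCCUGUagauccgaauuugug
miR-10b-5p: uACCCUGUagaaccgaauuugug
miR-196a-5p: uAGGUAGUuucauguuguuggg
miR-196b-5p: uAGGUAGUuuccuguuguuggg
The libraries were made from mRNA and do not measure mature miRNAs, so that the counts at these genes are reads of longer transcripts. Mir196a-1 of HoxB had 3.83, 5.70 and 6.44 CPM in WT and 4.08, 5.56 and 5.18 CPM in AS, and its log2 fold change of -0.10 was within the spread between samples (adjusted p = 0.727). Mir196b had 0 counts, Mir196a-2 had 0 counts in WT and 9 in AS, Mir10b had 0 counts in WT and 3 in AS, and Mir10a had 25 and 29 counts.

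Beside the clusters, the 3 nearest protein-coding genes on each side were compared with the Hox genes of the same cluster. At HoxC all 6 were higher in AS, Smug1, Cbx5, Hnrnpa1, Atf7, Atp5g2 and Calcoco1, with log2 fold changes between 0.20 for Atp5g2 and 0.52 for Atf7. At HoxA, 3 of 5 tested were lower, Skap2 (log2 fold change -0.44, adjusted p = 0.000299), Hibadh (log2 fold change -0.58, adjusted p = 0.000254) and Tax1bp1 (log2 fold change -0.24, adjusted p = 0.00561). At HoxB and HoxD none of 5 and none of 5 was called. Taken over all clusters, 6 of the 21 tested genes beside them were higher and 3 lower. Over all genes tested, 20.4% were higher and 19.6% lower. Evx1 and Evx2, homeobox genes at the posterior ends of HoxA and HoxD, had 0 counts in all samples. Lnpk, beyond Evx2 next to HoxD, had a log2 fold change of 0.015 (adjusted p = 0.904), and Mtx2 at the anterior end one of -0.055 (adjusted p = 0.628). The medians of chromosomes 6, 11, 15 and 2 were -0.19, -0.030, 0.20 and -0.018, and their part in the differences of the Hox genes was not tested.

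**Figure D5:**
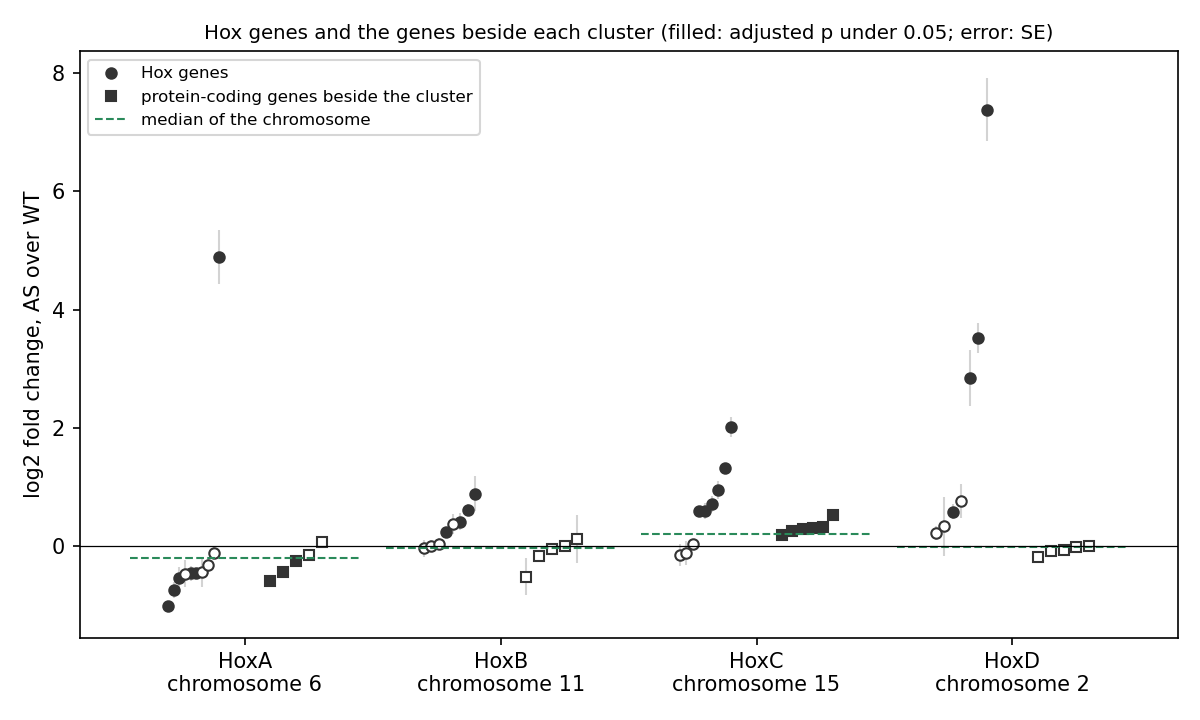
Log2 fold change (AS over WT, y axis) of the tested Hox genes (circles) and of the tested genes beside each cluster (squares), with SE bars, filled where the adjusted p is under 0.05, and the chromosome's median as a dashed line. The squares of HoxC are all filled and above 0, those of HoxB and HoxD are open, and Hoxa11, Hoxd10, Hoxd11 and Hoxd13 lie far above the genes beside them.

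Hox proteins act with TALE cofactors, of which all 9 could be tested, and 3 were higher and 2 lower in AS. The counts of this list and of the next ones stand beside 20.4% higher and 19.6% lower over all genes tested. Pknox2 fell from 4.92 to 0.334 CPM, a log2 fold change of -3.86 (adjusted p = 6.53e-05), while Pknox1 rose by 0.47 (adjusted p = 0.00077) on the same scale. The list had a median log2 fold change of 0.18, beside 0.0061 over all genes. Its summed level went the other way, with 448 to 606 CPM in the WT libraries and 365 to 412 CPM in the AS libraries.

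Cdx factors and retinoic acid switch on Hox clusters in the embryo. Cdx1, Cdx2 and Cdx4 had 0 counts in all samples, and of 11 tested genes of the list 7 were higher and 1 lower, with a median of 0.47. Rarg, a retinoic acid receptor, had 35.9 ± 2.15 CPM in WT and 62.8 ± 5.44 CPM in AS (log2 fold change 0.81 ± 0.078 SE, adjusted p = 4.72e-05). Cyp26b1, which breaks down retinoic acid, had 280.0 ± 76.3 CPM in WT and 560.4 ± 53.7 CPM in AS (log2 fold change 1.00 ± 0.16 SE, adjusted p = 0.0011). Aldh1a2, which is among the genes that make retinoic acid, had 279.8 ± 21.3 CPM in WT and 182 ± 6.18 CPM in AS (log2 fold change -0.62 ± 0.068 SE, adjusted p = 0.0001). The other Aldh1a genes of the list went the other way, with positive log2 fold changes, not all of them called.

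Of 27 Polycomb genes, 6 were higher, a share near that of all genes, and 2 lower, with a median of 0.081 and no change over 2-fold. Pcgf2 (log2 fold change 0.46, adjusted p = 0.000692), Jarid2 (log2 fold change 0.34, adjusted p = 0.00384) and Pcgf3 (log2 fold change 0.23, adjusted p = 0.00617) had the smallest adjusted p. Of 10 genes of Trithorax complexes and of the enzymes that remove the Polycomb mark H3K27me3, 2 were higher and none lower, Ash2l (log2 fold change 0.52, adjusted p = 6.05e-05) and Men1 (log2 fold change 0.32, adjusted p = 0.00283), with a median of 0.13. Among the genes that act with the group 11 genes in kidney development, 1 of 7 tested was higher and 3 were lower, with a median of -0.38. Gdnf, the signal that starts ureteric branching, had 14.5 ± 3.31 CPM in WT and 26.0 ± 2.42 CPM in AS (log2 fold change 0.85 ± 0.15 SE, adjusted p = 0.00204), while Pax2 had 171 ± 7.23 CPM in WT and 116 ± 3.28 CPM in AS (log2 fold change -0.57 ± 0.055 SE, adjusted p = 4.89e-05). Six2 was near 0 in both lines.

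Some markers of other kidney cells differed between the lines and others did not. The counts of called markers given here stand beside 20.4% higher and 19.6% lower over all genes tested. Col1a1, a collagen of stromal cells, had 24.3 ± 4.15 CPM in WT and 477 ± 99.1 CPM in AS, while Pdgfrb, a receptor of mesangial and stromal cells, had 253 ± 14.3 CPM in WT and 116 ± 0.362 CPM in AS (log2 fold change -1.12, adjusted p = 8.71e-07). Cdh16, a tubular cadherin, had 71.3 ± 17.7 CPM in WT and 199.7 ± 19.4 CPM in AS. The summed level of 7 mesangial and stromal markers ranged from 5828 to 7966 CPM (WT) and from 6887 to 7991 CPM (AS), with 1 higher and 1 lower of 6 tested and most of the sum in Acta2 (6701 ± 1094 CPM in WT and 6759 ± 588 CPM in AS), and that of 7 tubular markers from 322 to 382 CPM and from 378 to 527 CPM, with 1 higher of 3 tested and Umod and Aqp2 at 0. Of 4 parietal epithelial markers 2 were lower, and their sum was 638 to 677 CPM in the WT line and 456 to 491 CPM in the AS line. Endothelial markers summed to at most 1.35 CPM and immune markers to at most 3.57 CPM in any sample, with C1qa at 0, and of those tested 1 of 1 endothelial marker (Kdr) was lower and none of 3 immune markers was called. Whether these markers have a part in the differences of the Hox genes was not tested.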

How the data were processed

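RNA-seq of 3 WT and 3 AS samples was analysed. The authors deposited raw gene-level read counts as whole numbers, which they had not normalized. The submitters' processing notes name FastQC, Trim Galore, STAR, edgeR and mm39, without versions. No source used here gives the counting tool, its strand setting or the annotation release. The mRNA libraries had 15 PCR cycles and no stated molecular identifiers, so that intervals and floors cover counting error only.

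Names, gene type, order and exon lengths were taken from GENCODE M21 (GRCm38), matched by Ensembl identifier without version (51880 of 57132 genes). Tests were run with edgeR 4.0.16 in R 4.3.3 (filterByExpr, minimum count 10 and minimum total count 15; TMM; quasi-likelihood test, genotype as the only term). The SE is approximate (the size of the log2 fold change over the root of its F statistic). The test was tested on simulated data. Chromosome medians use genes with a mean log2 CPM (pseudocount 0.5) over 2. CPM per kilobase uses the union of annotated exons. Alternatives were RLE size factors, library size only, limma 3.58.1 with voom (the study's method), DESeq2 1.42.0, other filters, a replicate block, leaving out one sample at a time, a fold change over 2, the chromosome's median subtracted and the longest transcript as length. Within each group no samples agreed within counting noise, and no test for outlying samples was made in groups of 3.

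The clustered Hox genes are named. Of the further lists, at most 3 genes with the smallest adjusted p are named, and genes with a mean of at least 1 CPM that differ more than 4-fold. Marker genes, genes at 0 and Six2 are named beside that rule. Some members and list genes are not reported here. The members and lists were chosen with earlier results of these data known.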

Additional observations from a re-analysis of the deposited data

How the results depend on the processing

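Of 474 alternative values for the 34 tested Hox genes, 439 kept direction and side of the threshold, 20 lost a call, 3 gained one and 12 changed sign. With the chromosome's median subtracted the genes were not tested again, so that such a value could change sign but could not lose or gain a call. Apart from the limit of a 2-fold change, which these values leave out, the calls of 15 of the 20 called genes held under every alternative in which the gene was tested, and Hoxa3, Hoxb2, Hoxb3 and Hoxb5 were among the exceptions. With a fold change over 2, 6 genes were higher and 1 lower. With one sample left out, 12 to 15 genes were higher and 3 to 5 lower. With a replicate block, 14 were higher and 5 lower, since Hoxb2 lost its call (adjusted p = 0.0536). Samples with the same number deviated together only weakly (r = 0.147, 0.0939 and 0.0526), so that the numbers were not taken to pair the samples. With library size only, 4 genes were lower. Hoxd4 gained a call without a filter (0.0423), with a mean of at least 1 CPM (0.0494) and without AS replicate 1 (0.0398).

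The changes of sign were in genes that the reported test did not call, of which Hoxb9 passed the threshold without WT replicate 1 (adjusted p = 0.0182). With the chromosome's median subtracted, Hoxa5 turned to 0.087 and Hoxc10 to -0.17. Hoxb7 was at -0.0041 with RLE size factors and with DESeq2, -0.00093 with the replicate block, -0.0025 with a mean of at least 1 CPM and -0.0012 with limma-voom, and ranged from -0.12 to 0.075 with one sample left out. That range was -0.047 to 0.11 for Hoxb8, -0.16 to 0.19 for Hoxb9 and -0.24 to 0.079 for Hoxc12, and the cause was not tested. With one sample left out, the AS over WT ratio of the summed CPM ranged from 0.673 to 0.731 for HoxA, 1.01 to 1.17 for HoxB, 1.49 to 1.55 for HoxC and 1.85 to 2.04 for HoxD. With the longest transcript as length, 19 of 73 levels per kilobase moved by more than the SD of their samples. A gene without counts may still have had up to 0.0209 CPM over the WT samples or 0.0198 CPM over the AS samples.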
